A study of Mus musculus with 2 samples.

Results

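The 5 mouse genes of miR-21, miR-199 and miR-214 (Mir21a, Mir199a-1, Mir199a-2, Mir199b and Mir214) were followed in microRNA sequencing of gastrocnemius, the large calf muscle. They were chosen by their GENCODE M21 symbols, matched by Ensembl identifier, and are 5 of the 2202 genes counted. The tissue was male and 2 months old, of strain B6CASTF1/J, the first-generation hybrid of the C57BL/6J and CAST/EiJ strains. The labels name no treatment, injury or disease and no second group. The series holds 2 libraries of RNA inserts under 30 nt, labelled as biological replicates 2 and 1, each from its own tissue sample. Both samples are listed under the same donor entry, and the labels do not settle whether they came from separate mice. Each SD therefore measures the spread between these 2 libraries, which may be technical.

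MicroRNAs are cut from hairpin precursors as a duplex, whose 5p or 3p strand guides Argonaute to messenger RNAs that pair with the seed, bases 2 to 8 of the guide. miR-21, miR-199 and miR-214 are best known in connective tissue. miR-21 rises in activated fibroblasts of injured heart, lung, kidney and muscle and represses Spry1, an inhibitor of growth factor signalling. miR-214 and the Mir199a-2 copy of miR-199a come from the Dnm3os transcript, which the mesenchymal factor Twist1 activates, and miR-214 also represses Ezh2 during differentiation of muscle cells.

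The mature sequences are shown because they decide which reads can be given to a single gene. Seeds are in capitals, and all sequences are those of RefSeq on GRCm38.p6, where all 5 genes have a hairpin and at least 1 mature sequence.
miR-21a-5p: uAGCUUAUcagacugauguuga
miR-21a-3p: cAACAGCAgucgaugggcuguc
miR-214-3p: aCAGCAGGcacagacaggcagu
miR-214-5p: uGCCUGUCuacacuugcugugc
miR-199a-5p: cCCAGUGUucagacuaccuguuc
miR-199a-3p and miR-199b-3p: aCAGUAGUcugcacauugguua
The miR-199 3p sequence is the same, base for base, in 3 genes, namely Mir199a-1, Mir199a-2 and Mir199b. miR-199a-5p is the same in 2, Mir199a-1 and Mir199a-2. Each miR-21a and miR-214 strand occurs in 1 gene. No seed is shared between the miR-21, miR-199 and miR-214 genes. Outside them, the miR-21a-5p seed recurs in miR-21c, and that of miR-214-3p in miR-761.
miR-21c: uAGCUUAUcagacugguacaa
miR-761: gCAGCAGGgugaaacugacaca
Neither relative gave a count that could enlarge its seed group. Mir21c and Mir761 had 0 counts in both libraries, as did Mir21b, a further gene named after miR-21.

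Mir21a (ENSMUSG00000065455.1) lies at chr11:86584067-86584158 of mm10, minus strand, inside exon 12 of Vmp1, an autophagy gene, on the same strand and within its untranslated region. Mir199a-2 (ENSMUSG00000070126.1, chr1:162217814-162217923) and Mir214 (ENSMUSG00000065516.1, chr1:162223368-162223477) lie 5444 bases apart on the plus strand. Both fall within exon 1 of Dnm3os, a noncoding transcript that runs antisense to an intron of the dynamin gene Dnm3. Mir199b (ENSMUSG00000092807.1, chr2:32318460-32318569, plus strand) lies antisense to an intron of Dnm1. Mir199a-1 (ENSMUSG00000065547.1, chr9:21496495-21496564, minus strand) lies antisense to an intron of Dnm2. All 3 miR-199 genes therefore sit opposite a dynamin gene. The sole other microRNA gene within 10 kb of any member was Gm23363, 116 bases from Mir199b, with 0 counts in both libraries.

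How much of each hairpin could yield a read of its own was measured in windows of 22 bases, about the length of a microRNA. In the Mir21a and Mir214 hairpins, 0 of 71 and 0 of 89 windows occurred in a microRNA gene at another position. In the miR-199 hairpins, 13 of 49 windows of Mir199a-1, 12 of 89 of Mir199a-2 and 8 of 89 of Mir199b occurred in another of the 3. Over all 2202 genes, 46.9% held at least 1 shared window. The hairpins are printed with the bases of shared windows in capitals.
Mir199a-1: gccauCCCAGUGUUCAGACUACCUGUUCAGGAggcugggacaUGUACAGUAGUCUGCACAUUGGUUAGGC
Mir199a-2: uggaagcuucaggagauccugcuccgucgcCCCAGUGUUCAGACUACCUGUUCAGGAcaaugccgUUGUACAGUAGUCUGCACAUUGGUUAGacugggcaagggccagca
Mir199b: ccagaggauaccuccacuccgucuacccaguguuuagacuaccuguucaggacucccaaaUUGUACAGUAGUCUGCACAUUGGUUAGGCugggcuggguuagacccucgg
Every base of both mature strands of Mir199a-1 and Mir199a-2 lay in a shared window, as did the 3p strand of Mir199b. The 5p side of Mir199b was set apart by 1 base. Its stretch that aligns with miR-199a-5p carries the substitution C10U, counted from 1 at the 5′ end of miR-199a-5p and given with the miR-199a base first. That base lies outside the seed. The longest run shared by the hairpins was 27 bases for Mir199a-1 with Mir199a-2 and for Mir199a-2 with Mir199b, and 28 bases for Mir199a-1 with Mir199b. At 18 bases, the run length fixed in the design, Mir21a and Mir214 again shared 0 windows with a gene elsewhere. At that length Mir199a-1 shared 21 of 53, Mir199a-2 21 of 93 and Mir199b 13 of 93. Matches elsewhere in the genome were not searched.

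**Figure D1:**
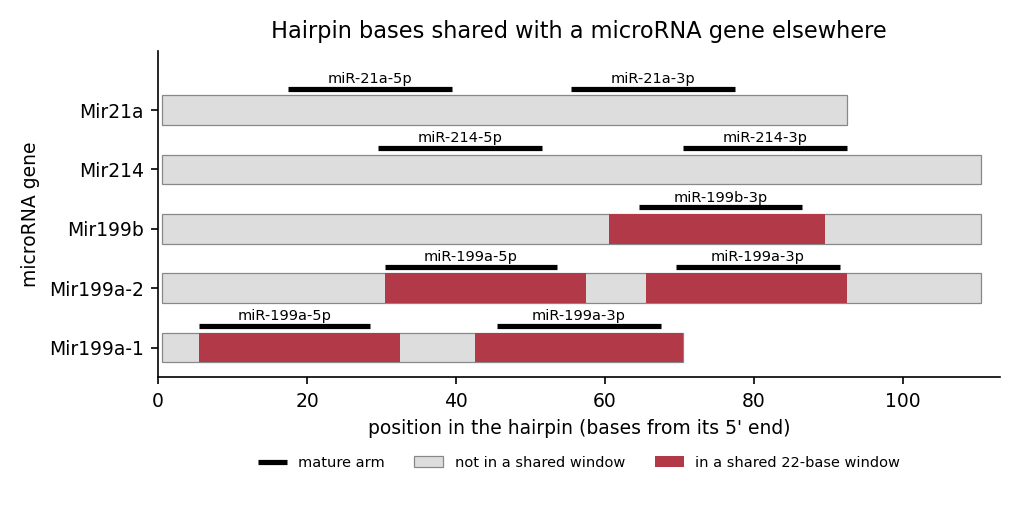
Each bar is the hairpin of 1 gene, with position in bases from its 5′ end on the horizontal axis; red marks bases in a 22-base window that also occurs in a microRNA gene elsewhere, grey all other bases, and black lines the mature strands held in the RefSeq table. Mir21a and Mir214 are grey throughout, while both strands of Mir199a-1 and Mir199a-2 lie in red.

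Reads that match several places were not assigned to a gene. They numbered 10476420 (74.4% of reads) in replicate 2 and 2788661 (75.2%) in replicate 1. Assigned counts were 2272132 in replicate 2 and 638779 in replicate 1. Values are given as counts per 1000000 assigned counts of a library (CPM), on the strand of the microRNA, with exact Clopper-Pearson 95% intervals that cover counting error alone. No molecular identifiers are recorded, so reads copied by PCR count more than once. Of the skeletal muscle microRNA genes, 9 of 9 reached 2 CPM in both libraries, led in assigned counts by Mir206, which is restricted to skeletal muscle. Over all 2202 genes the share was 13.8%. Lists of other cell types reached it too, with 4 of 4 leukocyte, 2 of 2 smooth muscle and 5 of 7 epithelial genes. This count therefore does not identify the tissue.

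Mir21a had by far the most assigned counts of the 5. It had 24765 counts, or 10899 CPM (10765 to 11035), in replicate 2, and 12183 counts, or 19072 CPM (18738 to 19411), in replicate 1. It was thus higher in replicate 1, and the intervals did not overlap. With a mean of 14986 ± 5779 CPM (SD, n = 2) it ranked 14th of all genes, 19th in replicate 2 and 14th in replicate 1. These are ranks by assigned counts, which leave out reads that match several genes, so they do not rank the microRNAs themselves. Counted in assigned reads, it supplied 92.4% of the counts of the 5 genes in replicate 2 (92.1 to 92.7%) and 96.8% in replicate 1 (96.5 to 97.1%).

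Mir214 came next. Mir21a had 12.8 times its counts in replicate 2 and 33.2 times in replicate 1. It had 1937 counts, or 853 CPM (815 to 891), in replicate 2 and 367 counts, or 575 CPM (517 to 636), in replicate 1. Here replicate 2 was higher, again with intervals that did not overlap. The mean was 714 ± 197 CPM (SD, n = 2), at rank 66 of all genes by assigned counts.

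The miR-199 genes had few assigned counts. Mir199b had 53 counts, or 23.3 CPM (17.5 to 30.5), in replicate 2 and 29 counts, or 45.4 CPM (30.4 to 65.2), in replicate 1, with intervals that overlapped at their edges. Its mean was 34.4 ± 15.6 CPM (SD, n = 2). Mir199a-2 had 44 counts, or 19.4 CPM (14.1 to 26), in replicate 2 and 4 counts, or 6.26 CPM (1.71 to 16), in replicate 1, and these intervals overlapped. Its mean was 12.8 ± 9.27 CPM (SD, n = 2). Mir199a-1 had 0 counts in both libraries, for which the exact interval ran from 0 to 1.62 CPM in replicate 2 and from 0 to 5.77 CPM in replicate 1. By the simpler limit of 3 counts for a count of 0, which is one-sided and therefore lower, the bounds were 1.32 CPM in replicate 2 and 4.7 CPM in replicate 1.

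These limits hold for reads that match Mir199a-1 alone and say nothing of miR-199a itself, whose mature strands match 2 or 3 genes. The 97 counts of the 3 miR-199 genes in replicate 2 and the 33 in replicate 1 therefore leave the abundance of miR-199a-5p and miR-199a-3p unmeasured. The miR-199 genes made up 0.362% of the counts of the 5 genes in replicate 2 (0.294 to 0.441%) and 0.262% in replicate 1 (0.181 to 0.368%). Of the 5 genes 4 reached 2 CPM in both libraries, against 13.8% of the 2202 genes counted.

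**Figure D2:**
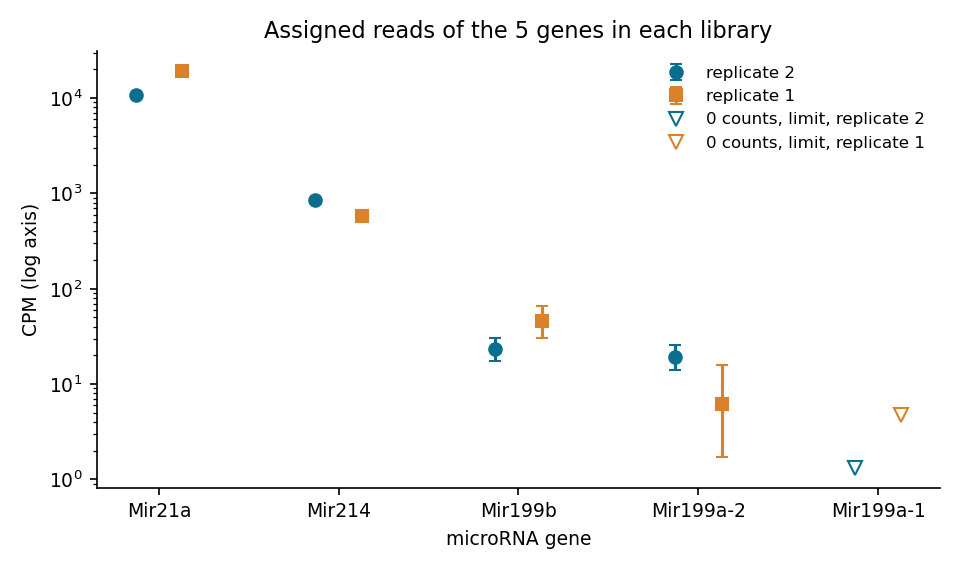
CPM on a log axis for the 5 genes, with replicate 2 as circles and replicate 1 as squares; bars are exact 95% counting intervals, hidden by the symbol where narrow, and open triangles stand for 3 counts where the count was 0. Mir21a lies at 10899 CPM in replicate 2 and 19072 in replicate 1, Mir214 between 575 and 853 CPM, and the miR-199 genes below 100 CPM.

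The order Mir21a, Mir214, Mir199b, Mir199a-2, Mir199a-1 was the same in both libraries. It is an order of assigned counts and not of the microRNAs, since miR-199 strands that match 2 or 3 genes were not assigned. A microRNA read spans the mature strand, so CPM were compared without division by gene length. Per 100 bases of annotated gene, the mean levels were 16289, 649, 31.2, 11.6 and 0 CPM, in the same order. The CPM intervals of Mir21a, Mir214 and Mir199b did not overlap in either library. Those of Mir199b and Mir199a-2 overlapped in replicate 2 (17.5 to 30.5 and 14.1 to 26) and did not in replicate 1 (30.4 to 65.2 and 1.71 to 16). Those of Mir199a-2 and Mir199a-1 did not overlap in replicate 2 (14.1 to 26 and 0 to 1.62) and did in replicate 1 (1.71 to 16 and 0 to 5.77).

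Mir199a-2 and Mir214, which share the Dnm3os transcript, differed widely in assigned reads. Mir214 gave 97.8% of the counts of the pair in replicate 2 (97 to 98.4%) and 98.9% in replicate 1 (97.3 to 99.7%). For each 100 counts of Mir214 there were 2.27 of Mir199a-2 in replicate 2 (1.65 to 3.06) and 1.09 in replicate 1 (0.295 to 2.81), so the intervals overlapped. Both mature strands of Mir199a-2 also match Mir199a-1, and both strands of Mir214 match a single gene, so this is no measure of their relative output.

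Between the libraries the members moved in opposite directions. Mir21a was lower in replicate 2 than in replicate 1, at 0.571-fold (counting interval 0.559 to 0.584; log2 ratio -0.81). Mir214 was 1.48-fold higher (1.33 to 1.66; log2 ratio 0.57), with an adjusted p of 3.88e-12 by the exact conditional binomial test. Mir199b was lower in replicate 2, at 0.514-fold (0.321 to 0.838; log2 ratio -0.97; adjusted p = 0.0147 by the same exact test). Mir199a-2 had a ratio of 3.09 (1.13 to 11.9; log2 ratio 1.48) that missed the threshold of 0.05, with an adjusted p of 0.054 by the exact test. Mir199a-1 could not be tested.

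These calls compare 2 libraries of 1 group against counting error, with Benjamini-Hochberg adjustment over the 311 genes with at least 10 counts. The adjusted p of Mir21a was too small for the computer to hold. Of the 4 members tested 3 were called, 1 higher and 2 lower in replicate 2. Over all genes tested 40.5% were called, 23.2% higher and 17.4% lower, and with so common a call the members' count is no result about them. With TMM scaling, 57 genes were higher and 64 lower, in place of 72 and 54, and the calls of the members were the same 3. Once the spread between the libraries was counted as noise (a coefficient of variation of 27.6% over 311 genes), edgeR's exact test called 0 of the 4 members. That test called 2 genes in all (0.643%), with an unadjusted p under 0.05 for 20. These 2 genes, named after their values were seen, were Mir292 and Mir543. The unadjusted p of that exact test was 0.158 for Mir21a, 0.323 for Mir214, 0.16 for Mir199b and 0.0982 for Mir199a-2.

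Among abundant genes, at cuts that were not fixed in the design, the ratio of Mir21a lay near the lower end. None of the other genes among the 25 most abundant had a lower ratio of replicate 2 to replicate 1. Of the 146 tested genes with a mean of 100 CPM or more, 4 had a lower log2 ratio than Mir21a and 17 had a higher one than Mir214. Over all 311 tested genes, 16 had a lower ratio than Mir21a, which ranked 65th by the size of its log2 ratio in either direction. The log2 ratios of the 311 tested genes had quartiles of -0.34 and 0.46 around a median of 0.04, so Mir21a, Mir199b, Mir214 and Mir199a-2 all lay outside the middle of the distribution.

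**Figure D3:**
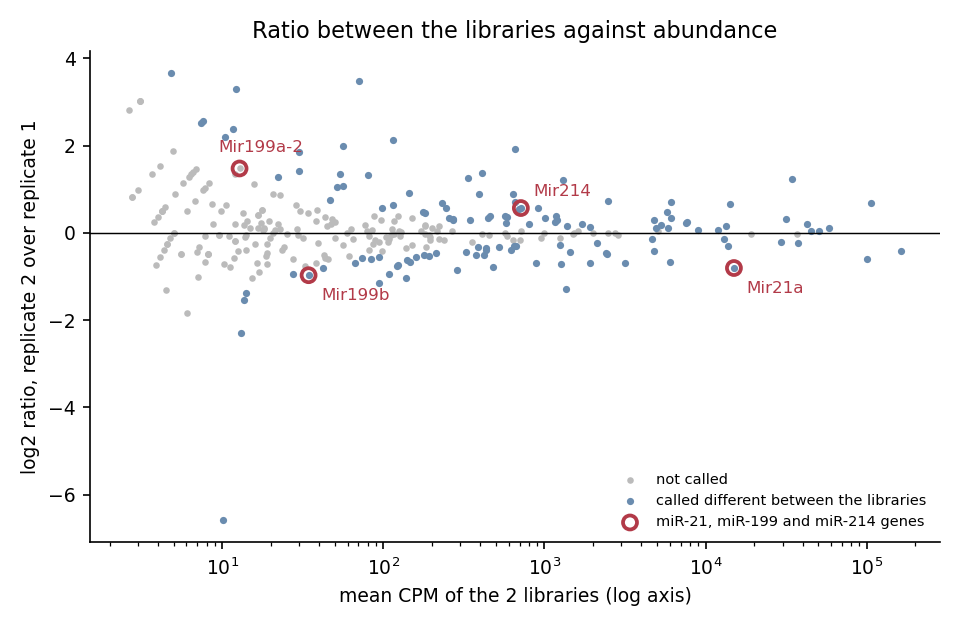
Log2 ratio of replicate 2 over replicate 1 (prior count 0.5 per library) against mean CPM on a log axis for the 311 genes tested; blue points were called by the binomial test, grey points were not, and red rings mark the 4 members tested. Mir21a (-0.81) and Mir199b (-0.97) lie below 0, Mir214 (0.57) and Mir199a-2 (1.48) above it.

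The ratio of Mir214 to Mir21a within a library does not depend on how the libraries are scaled. For each 100 counts of Mir21a there were 7.82 counts of Mir214 in replicate 2 (7.46 to 8.19) and 3.01 in replicate 1 (2.71 to 3.34). The counting intervals did not overlap. For each 100 counts of Mir214 there were 2.74 of Mir199b in replicate 2 (2.04 to 3.59) and 7.9 in replicate 1 (5.22 to 11.5), also without overlap. Mir21a and Mir199b were thus lower against Mir214 in replicate 2 than in replicate 1.

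Markers of cell types moved between the same libraries, and their part in the members' ratios was not tested. Of the 7 genes on the fibroblast and mesenchymal list, which holds the 5 members, 6 were detected, and their sum was 13920 CPM in replicate 2, against 22563 CPM in replicate 1. Most of that sum was Mir21a itself, and the 2 genes that are no members, Mir140 and Mir455, summed to 2125 CPM in replicate 2, against 2865 in replicate 1. Of the 6 tested, 1 was higher in replicate 2, 3 were lower and 2 were not called, with a median log2 ratio of -0.08. Over all genes tested, 23.2% were higher and 17.4% lower, and against these shares the calls on such short lists are no result about them. Mir199a-1 was at 0.

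The skeletal muscle list, 9 of 9 detected, summed to 52158 CPM in replicate 2, against 22884 in replicate 1. Mir206 made up most of it, at 48078 CPM in replicate 2 and 20325 CPM in replicate 1. Of the 9 genes, 4 were higher in replicate 2, 0 were lower and 5 were not called, a share called close to the 40.5% over all genes tested. Their median log2 ratio was 0.04, the same as over all genes tested. The smooth muscle genes, both detected and both lower in replicate 2, summed to 81451 CPM in replicate 2, against 123068 in replicate 1, mostly from Mir143. The endothelial list, 1 of 2 detected, summed to 129798 CPM in replicate 2, against 81286 in replicate 1, nearly all of it from Mir126a.

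The remaining cell type lists were small. In replicate 2 the leukocyte list, 4 of 4 detected, summed to 2889 CPM, against 2542 in replicate 1. The erythroid list, 2 of 2 detected, summed to 4688 CPM in replicate 2, against 6176 in replicate 1, and the epithelial list, 5 of 7 detected, to 215 CPM in replicate 2 and 225 in replicate 1. By the binomial test, 2 leukocyte genes were higher in replicate 2 and 1 was lower. The erythroid list had 2 genes lower and the epithelial list 1, with 0 higher on either. In bulk tissue, fewer cells of a type and less RNA per cell cannot be told apart.

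Other microRNAs with a published role in fibrosis were read from lists. Of 7 genes reported as profibrotic besides the members, 2 were higher in replicate 2, 1 was lower and 4 were not called, and their share called was close to the 40.5% over all genes tested. Their median log2 ratio was 0.30, against 0.04 over all genes tested. Mir145a, the partner of Mir143 in smooth muscle, was the most abundant, at 2044 CPM in replicate 2 and 2846 in replicate 1, and was lower in replicate 2 (log2 ratio -0.48). Mir155, a microRNA of activated leukocytes, had 1314 CPM in replicate 2, against 1065 in replicate 1, and was higher (log2 ratio 0.30). Mir208b, from an intron of the slow myosin gene Myh7, had 819 and 564 CPM in replicates 2 and 1 and was also higher (log2 ratio 0.54). Mir34a, a target of p53, had 208 and 193 CPM, and Mir503 had 48.4 and 51.7 CPM in replicates 2 and 1, neither called.

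Of 19 genes reported as antifibrotic, 2 were higher in replicate 2, 7 were lower and 10 were not called, beside 23.2% higher and 17.4% lower over all genes tested. Their median log2 ratio was -0.39. The exact test of edgeR, which counts the spread between the libraries as noise, called 0 of the 19, with adjusted p from 0.53 to 1. Mir30a had the most assigned counts, at 34518 CPM in replicate 2 and 40421 in replicate 1 (log2 ratio -0.23). Mir29a, whose family represses collagen transcripts, had 4606 CPM in replicate 2 and 7333 in replicate 1 (log2 ratio -0.67). Mir29c had 789 and 1935 CPM in replicates 2 and 1 (log2 ratio -1.29). All 3 were lower in replicate 2 by the binomial test.

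The miR-101 genes were lower as well. Mir101b had 1463 CPM in replicate 2 and 2358 in replicate 1 (log2 ratio -0.69), and Mir101a had 963 and 1569 CPM (log2 ratio -0.70). Of the 19 antifibrotic genes, 11 held a window of 22 bases that also occurs in a microRNA gene elsewhere, beside 46.9% of all 2202 genes. Among the mature sequences used here, 8 of the 19 held one on a mature strand. Those sequences include none of Mir133a-1 and Mir133a-2, which share 13 windows with each other, so their strands could not be judged. Of the 7 profibrotic genes, 0 held such a window. Among the 5 antifibrotic genes named here, Mir29c held 1 such window of 67, on neither mature strand, and Mir30a, Mir29a, Mir101a and Mir101b held 0. On the connective tissue list, Mir140, a microRNA of cartilage, had 2018 CPM in replicate 2, against 2779 in replicate 1, and was lower (log2 ratio -0.46). Mir455 had 107 and 86.1 CPM in replicates 2 and 1 and was not called.

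**Figure D4:**
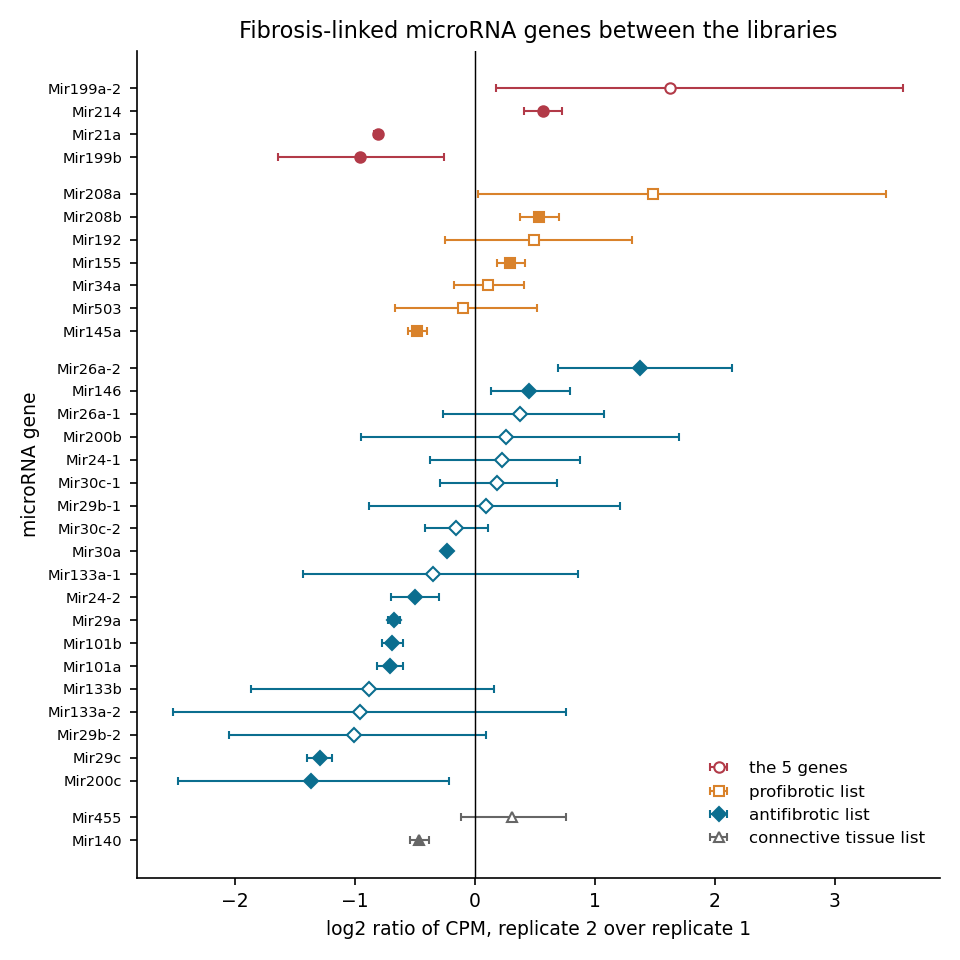
Log2 ratio of CPM, replicate 2 over replicate 1 and without a prior count, for the members and the genes of the fibrosis and connective tissue lists with at least 10 counts; bars are 95% counting intervals, and filled symbols mark genes called by the binomial test over all 311 genes. Among the members Mir21a and Mir199b lie left of 0 and Mir214 right of it, and 7 of 19 antifibrotic genes are filled left of 0.

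The genes closest to each member in the 2 libraries were found by the Euclidean distance of log2(CPM + 1), a likeness over 2 values that mostly reflects abundance. Mir208b was closest to Mir214, at a distance of 0.0647, and Mir328 followed at 0.201. The closest to Mir21a were Mir30d (0.378) and Mir30e (0.519). Mir134 (0.162) and Mir3068 (0.329) were closest to Mir199b, and Mir208a (0.13) and Mir137 (0.546) to Mir199a-2. Mir21a thus had no neighbour as near as those of Mir214. Mir30d, the closest, had 12370 CPM in replicate 2 and 15166 in replicate 1, a smaller difference between the libraries than that of Mir21a.

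Few reads of the members lay on the opposite strand. Mir214 had 3 such counts in replicate 2 and 1 in replicate 1, Mir21a had 0 and 1, and the miR-199 genes had 0 in both. No member overlaps another microRNA gene, and when strand was ignored each member's count changed by at most 3 reads. Their CPM then rose because the total fell to 1591442 in replicate 2 and 447110 in replicate 1.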

How the data were processed

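The deposited tables hold raw counts of reads per microRNA gene, made by the authors on mm10 with GENCODE M21, 1 table per library, per the texts deposited with them. Which aligner and counter were used is not given in the sources used here. Of 3 count columns per table, the same-strand column was used. All 2202 identifiers matched GENCODE M21. Rows that name no gene (unmapped, multi-mapping, no feature) held 83.9% of reads in replicate 2 and 82.8% in replicate 1 and stayed out of library sizes.

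Counts were divided by the library total over genes (CPM). Genes with at least 10 counts over both libraries were compared, replicate 2 over replicate 1, by a two-sided exact binomial test conditional on each gene's sum, with p-values adjusted by Benjamini-Hochberg over all genes tested and a threshold of 0.05. Log2 ratios carry a prior count of 0.5 per library. This step was tested on counts simulated with counting error alone. The simulation held no further spread between the libraries, so it does not show how the test behaves under such spread. Detection meant 2 CPM in both libraries.

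The 5 genes and the lists were chosen with earlier results of these data known. Named genes are the members, microRNA genes within 10 kb, genes that share a seed, Mir21b, the 2 nearest genes by CPM, the connective tissue genes and up to 5 of each fibrosis list with the highest mean CPM. Mir206, Mir143 and Mir126a are named as the leading cell type markers of their lists, and Mir292 and Mir543 were chosen after their values were seen. Mir133a-1 and Mir133a-2 are named for the windows they share and because the mature sequences used here include none of theirs. A gene listed as Mir146a was matched as Mir146. The window of 22 bases, its use on the fibrosis lists, and TMM scaling for the lists and the dispersion, were chosen after seeing the data. Alternatives were the unstranded column, TMM (edgeR 4.0.16) and DESeq2 1.42.0 scaling, the total without its top gene, other prior counts and minimum counts, the exact test of edgeR with a common dispersion, and each library left out. Software was Python 3.11.15 with scipy 1.17.1, Biopython 1.88 and R 4.3.3.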

Additional observations from a re-analysis of the deposited data

How the results depend on the processing

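With unstranded counts, whose library totals are smaller, the mean CPM was 21406 for Mir21a, 1021 for Mir214 and 22494 for the 5 genes summed, in place of 14986, 714 and 15747. With the exact test of edgeR and its common dispersion, 2 genes were called in place of 126, and 0 members, whose log2 ratios were -0.81 for Mir21a, -0.96 for Mir199b and 0.57 for Mir214 (adjusted p = 1 for each). By its construction that test counts the spread between the libraries as noise. Leaving out 1 library gave a mean CPM of 10899 to 19072 for Mir21a, 575 to 853 for Mir214, 23.3 to 45.4 for Mir199b and 6.26 to 19.4 for Mir199a-2, and 11795 to 19699 for the sum. With 2 libraries such a mean always moves by less than their SD, so this is no sign of stability. Of 55 other comparisons of a result with an alternative, leaving aside prior counts, which do not enter the test, and Mir199a-1, which was at 0, 48 kept their direction and their side of the threshold or moved by less than the spread, 4 moved and 3 lost their call, as given above; 0 changed direction. The 48 include unstranded means of 49.1 CPM for Mir199b and 18.3 for Mir199a-2, in place of 34.4 and 12.8. Both rises were within their wide SD of 15.6 and 9.27. Unstranded ratios and shares of the members could hardly change, since their counts differ by at most 3 reads. The adjusted p of Mir199b ranged from 0.00793 to 0.0195 over the other alternatives, and that of Mir199a-2 from 0.054 to 0.0771. The miR-199 genes rest on 4 to 53 counts a library where any were found, which makes their counting intervals wide; the part of depth in these low counts was not tested. No paired analysis was possible because the series has 1 group.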
